A study of Mus musculus with 4 samples.

Results

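The peaks described here are those of the Bio-Myc and Max ChIP-Seq that lay at promoters of noncoding genes and at no promoter of a protein-coding gene. They were chosen by position and by score: a peak had to overlap the 1 kb on either side of an annotated TSS of a noncoding gene and the same window of no protein-coding gene, on the autosomes or chromosome X, with a score under 3100. By this rule 84 of 3962 Bio-Myc peaks and 313 of 11570 Max peaks were selected, 397 of 15532 peaks in all. The positions of the TSSs came from GENCODE M1, which holds 14902 noncoding genes on these chromosomes.

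Myc was mapped with streptavidin beads (Bio-Myc) in E14 mouse embryonic stem cells (ESCs). These were 1 stable clone with the biotin ligase BirA and biotin-tagged Myc under the EF1α promoter. The comparison sample was a streptavidin ChIP on cells without the tagged protein, which the labels call parental wild type and the methods call BirA-ES cells. Endogenous Max was mapped with an anti-Max antibody in parental wild-type E14 cells, with an IgG ChIP as its control. All cells were grown with serum and LIF. Each ChIP was 1 library and the tagged line was 1 clone, so p-values and intervals do not cover variation among cultures, and the transgene, the cells and the capture method differ together between them. The lists hold no read numbers, so the depth of the libraries is unknown. The peak score is -10 times the log10 of the p-value of the peak caller, and the lowest scores were 80 in the Bio-Myc list and 80.02 in the Max list.

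Myc and Max are basic helix-loop-helix leucine zipper proteins. Myc binds DNA as a heterodimer with Max, most strongly at the E-Box CACGTG, while Max also forms homodimers and pairs with the Mxd proteins, Mnt and Mga. Noncoding promoters drive several kinds of RNA: host transcripts from whose introns small nucleolar RNAs (snoRNAs, guides for the modification of ribosomal RNA) are cut, primary transcripts of microRNAs, long intergenic noncoding RNAs (lincRNAs) and transcribed pseudogenes.

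The sequences below show the E-Box nearest to the peak centre with 20 bases on each side. They are from the 6 highest-scoring Bio-Myc peaks of this group that overlapped a Max peak and had an E-Box within 100 bp of the centre, other than Snhg4 (275.73), which met these conditions and is not shown. They are from the plus strand of mm9, 5′ to 3′, and the capitals mark the E-Box nearest to the centre. The Tmem185b stretch holds another CACGTG, which is left in lower case.
SNORA9 (host Gm11974), chr11:6427996-6428041: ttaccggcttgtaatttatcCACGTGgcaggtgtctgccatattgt
Nespas, chr2:174121294-174121339: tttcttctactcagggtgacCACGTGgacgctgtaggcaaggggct
Snhg12, chr4:131864986-131865031: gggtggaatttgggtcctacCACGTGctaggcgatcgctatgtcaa
Ppp1r3e, chr14:55495773-55495818: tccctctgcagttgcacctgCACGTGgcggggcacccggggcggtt
Tmem185b, chr1:121422967-121423012: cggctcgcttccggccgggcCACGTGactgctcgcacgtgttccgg
AC115823.1, chr5:74489460-74489505: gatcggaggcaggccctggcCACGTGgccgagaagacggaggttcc

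The same stretch is shown for the 4 highest-scoring Max peaks of the group that overlapped no Bio-Myc peak and had an E-Box as close to the centre.
A030009H04Rik, chr11:69154248-69154293: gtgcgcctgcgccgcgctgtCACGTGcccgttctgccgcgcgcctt
Pisd-ps1, chr11:3027438-3027483: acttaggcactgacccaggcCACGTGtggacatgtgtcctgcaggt
Sox2ot, chr3:34562993-34563038: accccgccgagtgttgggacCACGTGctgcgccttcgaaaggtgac
Zfp783, chr6:47893171-47893216: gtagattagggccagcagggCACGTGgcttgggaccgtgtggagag

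The highest-scoring peaks did not all hold an E-Box. The central 100 bases of the 2 highest-scoring peaks of each list without an E-Box anywhere in the peak follow. None of them held the related words CACGCG and also none held CATGTG, on either strand, and no base is in capitals.
9430008C03Rik (Bio-Myc), chr2:158187062-158187161: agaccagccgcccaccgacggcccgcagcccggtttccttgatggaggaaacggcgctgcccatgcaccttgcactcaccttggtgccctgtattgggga
Pvt1 (Bio-Myc), chr15:61869971-61870070: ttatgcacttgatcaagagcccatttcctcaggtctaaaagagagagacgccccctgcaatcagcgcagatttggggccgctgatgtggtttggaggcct
Pisd-ps2 (Max), chr17:3082195-3082294: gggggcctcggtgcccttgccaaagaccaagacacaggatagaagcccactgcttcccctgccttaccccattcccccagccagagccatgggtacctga
2410075B13Rik (Max), chr15:75812110-75812209: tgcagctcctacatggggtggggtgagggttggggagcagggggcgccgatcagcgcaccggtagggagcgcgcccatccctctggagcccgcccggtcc

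Promoters of snoRNA genes and of their host transcripts held the 2 highest Bio-Myc scores of the group. The peaks ranked 3 to 6 (Pdf, Pvt1, 5430416N02Rik and Mir17hg) were at genes without a snoRNA. The highest score of the group, 1684.98, was at 9430008C03Rik, which RefSeq names Snhg17 and whose annotated body holds 3 copies of SNORA71. The whole Bio-Myc list reached 2356.87, at a peak away from promoters. The overlapping Max peak had a score of 1349.43. The second, at 802.46, covered SNORA9 and its host Gm11974 (RefSeq Snhg15), with 6 E-Boxes in the peak, and the Max peak there scored 1898.89. Snhg5, the host of the SNORD50 genes, had a Bio-Myc score of 488.85 and a Max score of 404.36, with no E-Box in either peak. At 1110038B12Rik, which holds 3 annotated snoRNAs, the scores were 388.51 for Bio-Myc and 667.63 for Max. The unnamed snoRNA gene AC102570.1 had 423.25 and 204.04. Snhg4 reached 275.73 and 470.26, with 3 E-Boxes in each peak. At AC102570.1 the Max peak overlapped the Bio-Myc peak but was more than 1 kb from the TSS, and the other promoters named were in both lists of the group. The Max score was above the Bio-Myc score at some and below it at others.

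A snoRNA was annotated in the promoter window itself, or in the body of a gene whose promoter window was hit, for 17 of the 84 Bio-Myc peaks (20.2%) and for 24 of the 313 Max peaks (7.67%). A Max peak overlapped 15 of these 17 Bio-Myc peaks, and the exceptions were Snord12 (score 92.29) and SNORD93 (82.78), both near the lower score limit. Of the 24 Max peaks 14 overlapped Bio-Myc (58.3%, 95% Wilson interval 38.8 to 75.5), against 50 of the 289 Max peaks without a snoRNA (17.3%, 13.4 to 22.1). The median Max score was 282 with and 163 without a snoRNA, and an E-Box lay in 17 of 24 against 104 of 289 peaks. This grouping was made after the values were seen, so it is given without a test. Over all 1552 annotated snoRNA genes, the shares with a peak within 1 kb were 6.31% (Bio-Myc, 98 genes) and 6.19% (Max, 96 genes). Of those genes 25 and 31 were in windows of the group, and the others lay at peaks outside it. The share of peaks with a snoRNA is not given for the other classes, so the group is not compared with them.

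The host RNAs of the gene list drawn up for this family were mostly bound. Of 14 listed hosts 10 were annotated under that name, and 9 of them were bound by Bio-Myc and 9 by Max, with a peak within 1 kb of a TSS. Among all 14902 noncoding genes 3.12% were bound by Bio-Myc and 6.87% by Max in this sense. The list counts Dleu2, whose annotated body holds no snoRNA and which is known as the host of miR-15a and miR-16-1. Snhg4, Snhg5, Snhg7, Snhg12 and Dleu2 were clear of coding promoters. The Bio-Myc score was 163.71 at Snhg7, 193.69 at Snhg12 and 115.57 at Dleu2, where the Max scores were 261.1, 164.13 and 523.15. Gas5, Snhg1, Snhg3 and Snhg9 were bound as well, but their peaks also touched a coding promoter and do not belong to the group.

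MicroRNA genes lay in the windows of peaks of both lists, 5 with Bio-Myc, 26 with Max and 2 with both. The annotated TSS of a miRNA gene is the start of its hairpin, as for Mir17 at chr14:115442893-115442976. It need not be the promoter of the primary transcript. The promoter of Mir17hg, the host of the miR-17-92 cluster and a known Myc target, had a Bio-Myc score of 566.43 and a Max score of 535.95. The TSSs of Mir17, Mir18 and Mir19a lay within 1 kb of the Bio-Myc peak, and those of Mir17 and Mir18 within 1 kb of the Max peak, while Mir20a, Mir19b-1 and Mir92-1 were farther downstream. The other Bio-Myc peak with a miRNA in its window was at A930011O12Rik (RefSeq Mir124a-1hg, 85.34), whose window held Mir124a-1 and AC134898.1, and it overlapped no Max peak. By nearest noncoding TSS a miRNA was assigned to 22 Max peaks and to no Bio-Myc peak, a difference that was not tested. None of these 22 overlapped a Bio-Myc peak (0%, Wilson upper bound 14.9), against 20.4% of the 313 Max peaks of the group. Of all 11534 Max peaks on these chromosomes under the score limit 26.3% did. The Max peak with Mir17 and Mir18 in its window overlapped Bio-Myc, but was assigned to Mir17hg and is not among the 22. The highest were AC113316.1 at 537.72 and Mir212 at 536.91, whose window also held Mir132, followed among the named miRNAs by Mir130a at 299.87 and Mir135b at 285.79. Mir210, Mirlet7i, Mir148a, Mir124a-3 and Mir193b scored between 89.26 and 165.72. Mature sequences were found in RefSeq for 15 of the 29 miRNA genes in the windows of both lists. The following are shown to place miRNA genes in the windows of peaks in their seed families, with the seed (bases 2 to 8) in capitals and 1 arm for each gene.
miR-17-5p (both lists): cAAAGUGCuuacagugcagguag
miR-18a-5p (both lists): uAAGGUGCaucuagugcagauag
miR-19a-3p (Bio-Myc window): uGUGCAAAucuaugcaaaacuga
miR-212-3p (Max only): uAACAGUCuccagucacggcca
miR-132-3p (Max only): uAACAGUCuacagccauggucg
let-7i-5p (Max only): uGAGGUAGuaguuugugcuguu
Within these, miR-212-3p and miR-132-3p shared the seed AACAGUC and 1 Max peak. Of the 30 miRNAs and host genes listed for ESCs and Myc biology 27 were annotated, 4 were bound by Bio-Myc and 4 by Max. The 4 with Bio-Myc (Mir17hg, Mir17, Mir18 and Mir19a) lay at 1 peak. With Max, Mir17hg, Mir17 and Mir18 lay at 1 peak, and Mirlet7i had its own. For all annotated miRNA genes the shares with a peak within 1 kb were 1.52% (Bio-Myc) and 4.57% (Max). At the miR-290 cluster, which is abundant in ESCs, the nearest peaks were 16819 bp (Bio-Myc) and 6602 bp (Max) from Mir290. No annotated hairpin start of that cluster was thus in a window of the group, and the promoter of its primary transcript was not examined.

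LincRNAs made up the largest type in both lists by nearest TSS. They were the nearest gene for 41 of the 84 Bio-Myc peaks and for 125 of the 313 Max peaks, followed by processed transcripts with 29 and 96. Pvt1, a lincRNA gene downstream of Myc, had the fourth-highest Bio-Myc score of the group, 672, and a Max score of 252.15, with no E-Box in the Bio-Myc peak. The lincRNA 5430416N02Rik had 632.06 and 665.61. Gm16197, which RefSeq names Trp53cor1 (lincRNA-p21, a p53-induced RNA beside Cdkn1a), had 235.76 for Bio-Myc and 125.22 for Max. 2810011L19Rik (RefSeq Tunar, an RNA of pluripotent and neural cells) had 126.37 and 148.42. At 1700113A16Rik the order was the reverse of that at Pvt1, with 155.81 for Bio-Myc and 1063.96 for Max.

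Of the 18 listed nuclear, imprinted and X-linked long noncoding RNAs 14 were annotated, 6 were bound by Bio-Myc and 7 by Max. Only 4 and 5 of them had a peak of the group, as the peaks at Tug1 and Gt(ROSA)26Sor also touched a coding promoter. For all annotated lincRNAs the bound shares were 15.1% (Bio-Myc) and 34.9% (Max), and for all processed transcripts 4.39% and 10.8%. The differences from these shares were not tested. Malat1, an abundant RNA of nuclear speckles, scored 224.77 and 318.36, with peak centres upstream of the annotated TSS. Neat1, the scaffold of paraspeckles, held the lowest Bio-Myc score of the group, 81.29. Nespas, the antisense RNA of the imprinted Gnas locus, scored 438.54 and 340.93. Miat had a Max peak of 190.84 and its nearest Bio-Myc peak was 78482 bp away. Xist, Tsix, H19, Meg3, Rian, Mirg and Airn had a peak of neither list within 1 kb. Among 15 listed RNAs beside developmental regulators, 7 were annotated and Sox2ot alone was bound, by Max with a score of 634.58 and an E-Box 4 bp from the peak centre. Over all noncoding genes 6.87% were bound by Max and 3.12% by Bio-Myc. A list of 7 genes is too short to set against these shares, and no test was run.

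Pseudogenes were the nearest gene for 4 Bio-Myc peaks and 48 Max peaks. Of these 48 Max peaks 3 overlapped Bio-Myc (6.25%, 2.15 to 16.8), against 35 of 125 at lincRNAs (28.0%, 20.9 to 36.4) and 22 of 96 at processed transcripts (22.9%, 15.6 to 32.3). The difference between types was not tested. On chromosome 4, between positions 145036545 and 147113210, lay 9 Max peaks, 8 of them at pseudogenes, with scores from 89.67 to 1004.9 (Gm13036, followed by Gm15951 at 965.49), and none overlapped Bio-Myc. The only Bio-Myc peak of the group in that interval was Gm13150 at 217.77, 302708 bp from the nearest Max peak. On chromosome 8, between 19784438 and 20020615, the peaks at Gm10060, 6820431F20Rik and 2610005L07Rik were in both lists. The central 200 bp of these 3 Bio-Myc peaks were 92.8 to 97.6% identical over 170 to 199 aligned bases, so they are related copies and not independent sequences. Among small structural RNAs, an snRNA was the nearest gene for 7 Max peaks and for no Bio-Myc peak. The highest was a U6 gene on chromosome 9 at 342.69. Over all 1422 annotated snRNA genes, the shares with a peak within 1 kb were 0.633% (Bio-Myc) and 1.76% (Max). The type misc_RNA was nearest for 1 Bio-Myc peak, at Telomerase-vert (96.46), where the overlapping Max score was 116.31. This type was nearest for 3 Max peaks, among them another Telomerase-vert (99.86) and RNaseP_nuc (93.07).

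The gene types were also counted from the side of the genes, as the share of genes clear of coding TSSs that had a peak within 1 kb. For lincRNAs this was 41 of 573 (7.16%, 5.32 to 9.56) with Bio-Myc and 121 of 573 (21.1%, 18 to 24.6) with Max. The shares of processed transcripts were 1.55% and 4.35%, those of miRNAs 0.436% and 1.96%, and those of pseudogenes 0.101% and 0.872%. For snoRNAs they were closest to each other, 1.97% (1.35 to 2.85) and 2.26% (1.6 to 3.19). Protein-coding genes, counted with any peak within 1 kb, were at 14.7% and 34.8%. The genes in a snoRNA family or host share promoters and are not independent. Between the lists, 92 noncoding genes were in the windows of peaks of both, which is 82.1% of the 112 with Bio-Myc and 26.8% of the 343 with Max.

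**Figure D1:**
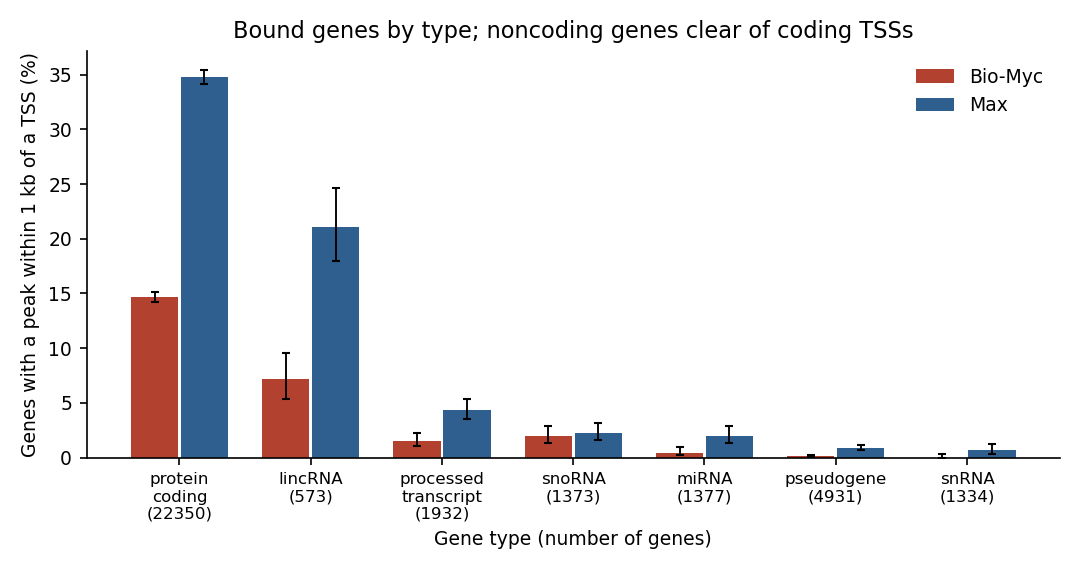
Percent of genes with a peak within 1 kb of a TSS (y axis) by gene type (x axis, with the number of genes), for Bio-Myc (red) and Max (blue); error bars are 95% Wilson intervals. LincRNAs reached 7.16% with Bio-Myc and 21.1% with Max, and snoRNAs 1.97% and 2.26%.

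The annotation calls noncoding some genes that RefSeq lists as protein coding. Of the nearest genes of the Bio-Myc peaks 56 of 84 matched a RefSeq gene by name and 8 were protein coding there. For Max these were 210 of 313 and 29, 13 of them among the 48 pseudogenes. They include Pdf, a mitochondrial peptide deformylase (706.93 for Bio-Myc and 627.23 for Max), 1500011K16Rik, which is Mtln and encodes a mitochondrial micropeptide (308.8 and 215.2), Tmem185b (171.14 and 699.06) and Ppp1r3e (181.54 and 441.69). With Max alone there were the single-exon genes Cebpd (151.03), H1f0 (155.21) and Frat1 (382.92), and Gm10664, which is Apela (103.08), the gene of a peptide hormone of ESCs. These promoters are noncoding by the annotation used and not by RefSeq.

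The overlap of the lists at these promoters was compared with that at coding promoters and away from promoters. The classes used only position and the upper score limit, and overlap with the other list was not part of the rule. An overlap was 1 bp or more. Of the whole Bio-Myc list 74.9% met a Max peak in this way. At noncoding-only promoters 64 of 84 did (76.2%, 66.1 to 84.0), against 2410 of 2900 at coding promoters (83.1%, 81.7 to 84.4). The difference of -6.91 percentage points had a 95% Newcombe interval of -17.1 to 1.05 and did not pass the test (adjusted p = 0.211, Fisher's exact test, two-sided, over peaks). Weighted to the same scores it was -9.10 points and passed (adjusted p = 0.04, Mantel-Haenszel test, which is not exact), and without peaks within 5 kb of a coding TSS it turned to 1.18 points. Away from promoters 493 of 978 Bio-Myc peaks overlapped (50.4%), which was 25.8 points lower than at noncoding-only promoters (15.2 to 34.2, adjusted p = 2.13e-05, Fisher's exact test). The p-values were adjusted by Benjamini and Hochberg over the 10 tests run. They measure the scatter of peaks within 1 library each and not that between cultures.

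Seen from the Max list, 64 of 313 peaks at noncoding-only promoters overlapped a Bio-Myc peak (20.4%, 16.4 to 25.3), against 2462 of 7561 at coding promoters (32.6%, 31.5 to 33.6). The share was lower (difference -12.1 points, -16.3 to -7.19, adjusted p = 2.13e-05, Fisher's exact test). With peaks of score 150 or more alone the difference was -5.46 points (adjusted p = 0.177, Fisher's exact test). Against peaks away from promoters (13.9%) the share was 6.54 points higher (2.28 to 11.5, adjusted p = 0.00614, Fisher's exact test). That difference was 5.29 points without chromosome 8 (adjusted p = 0.0571, Fisher's exact test). With the peaks weighted to the same scores it was 3.05 points (adjusted p = 0.314, Mantel-Haenszel test, which is not exact). Of the 64 Bio-Myc peaks with a Max peak, 62 met a Max peak that was also at a noncoding-only promoter, so the tests of the lists rest largely on the same pairs. Also fewer Bio-Myc than Max peaks were called, so the shares of the lists are not to be compared with each other.

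**Figure D2:**
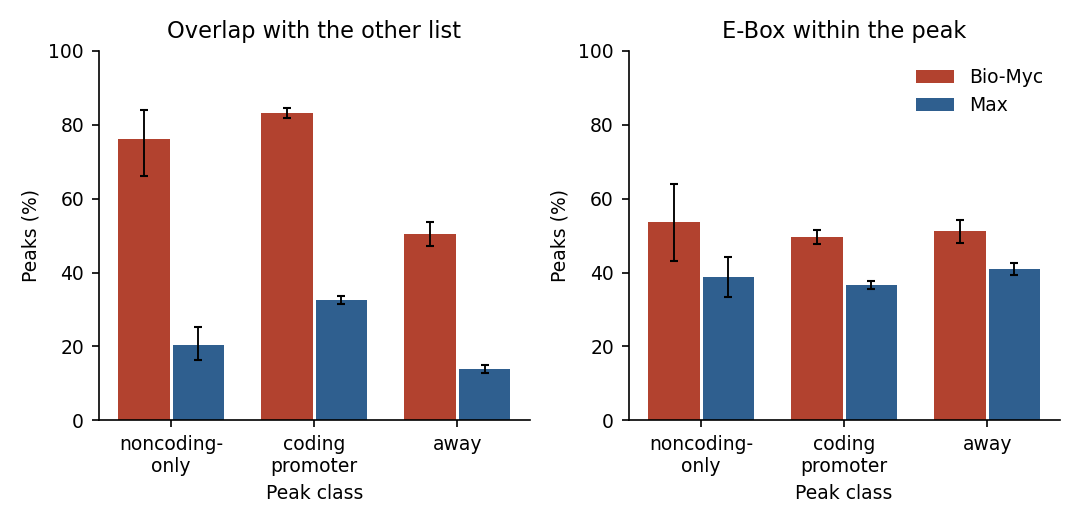
Percent of peaks (y axes) that overlap a peak of the other list (left) and that hold an E-Box (right), for the classes of peaks (x axes), Bio-Myc in red and Max in blue; error bars are 95% Wilson intervals. The overlap at noncoding-only promoters, 76.2% and 20.4%, lies between those of the other classes, and the E-Box shares of the classes lie close together.

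Peaks with higher scores overlapped more often in every class. When peaks were divided into 4 bins at the quartiles of the scores of the group, 11 of 21 Bio-Myc peaks in the lowest bin met a Max peak (52.4%, 32.4 to 71.7) and 19 of 21 in the highest (90.5%, 71.1 to 97.3). For Max the shares were 5 of 78 in the lowest bin (6.41%) and 36 of 79 in the highest (45.6%, 35.0 to 56.5). From the lowest bin to the highest the Max share was 6.41%, 12.8%, 16.7% and 45.6%. In the same score ranges it was 13.3%, 20.02%, 34.6% and 57.7% at coding promoters, and 8.66%, 11.6%, 16.4% and 32.2% away from promoters. Scores are a description here, since the rule used them.

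**Figure D3:**
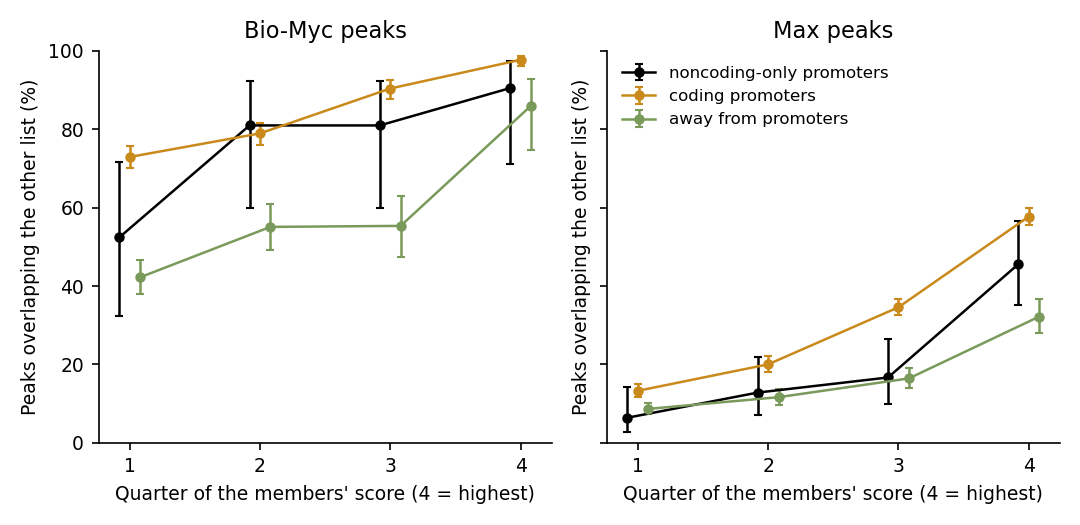
Percent of Bio-Myc peaks (left) and Max peaks (right) that overlap the other list (y axes), by score bin, cut at the quartiles of the noncoding-only peaks (x axes), for noncoding-only promoters (black), coding promoters (orange) and peaks away from promoters (green); error bars are 95% Wilson intervals. The black points of the lowest and highest bins are 52.4% and 90.5% (Bio-Myc), and 6.41% and 45.6% (Max).

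At the 64 Bio-Myc peaks with a Max peak the Max score was higher at 46, and the median ratio of Max to Bio-Myc score was 1.62 (quartiles 0.918 and 2.55). At shared coding promoters it was 1.68 (1.10 and 2.64). The libraries differ in capture and control and their depth is unknown, so a ratio does not compare the strength of binding. The scores of the lists were weakly related over the 64 pairs (Spearman's rho 0.348) and over the 2410 coding pairs (0.367), given as descriptions across peaks of 2 libraries. The lowest ratio, 0.313, was at Gm13067, with 295.62 for Bio-Myc and 92.53 for Max. The highest, 6.83, was at 1700113A16Rik.

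**Figure D4:**
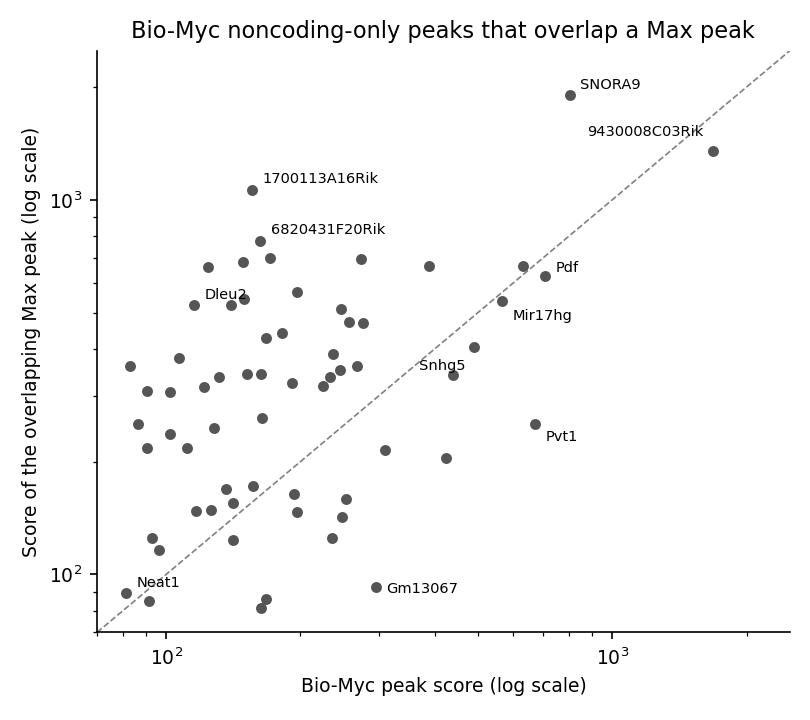
Score of the Bio-Myc peak (x axis, log scale) against that of the overlapping Max peak (y axis, log scale) for the 64 Bio-Myc peaks at noncoding-only promoters that overlap a Max peak; the dashed line marks equal scores. The Max score is higher at 46 of them, and 9430008C03Rik, Pvt1 and Gm13067 lie below the line.

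The 20 Bio-Myc peaks without a Max peak had a median score of 109, against 166 for those with one. The highest were at the pseudogene Gm13655 (406.81), D530049N12Rik (389.72), C430002E04Rik (222.71, RefSeq Platr4, a pluripotency-associated transcript), Gm13150 (217.77) and Gm11766 (190.86). Of these, the peaks at Gm13655 and Gm11766 covered no noncoding TSS. For 4 of the 20 a Max peak lay within 1 kb, the closest 16 bp away at T2, while 7 were more than 50 kb from any Max peak. D530049N12Rik was 841145 bp from the nearest one. The ratio of observed to expected CpG of the 20 had a median of 0.284, against 0.650 for the 64 with a Max peak. Over all Bio-Myc peaks away from promoters it was 0.316. For Max the medians were 0.582 without and 0.699 with a Bio-Myc peak.

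The E-Box CACGTG, which reads the same on both strands, was found in 45 of 84 Bio-Myc peaks of the group (53.6%, 43.0 to 63.8), against 50.1% of all Bio-Myc peaks. For Max it was 121 of 313 (38.7%, 33.4 to 44.2), against 38.0% of all Max peaks. In regions of the same widths 10 kb away that held no peak of the list the shares were 29 of 164 (17.7%) and 75 of 592 (12.7%). The differences from coding promoters were 3.95 points for Bio-Myc (-6.79 to 14.4) and 2.05 points for Max (-3.29 to 7.66), neither past the test (adjusted p = 0.635 for both, Fisher's exact test). Those from peaks away from promoters were 2.45 points (-8.59 to 13.2, adjusted p = 0.80) and -2.22 points (-7.68 to 3.51, adjusted p = 0.635), by the same exact test. The nearest E-Box lay within 100 bp of the centre in 21 of the 45 Bio-Myc peaks and in 61 of the 121 Max peaks, as in the sequences of Snhg12 and Sox2ot printed above.

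Among the Max peaks of the group an E-Box was found in 36 of 64 with a Bio-Myc peak (56.3%, 44.1 to 67.7) and in 85 of 249 without one (34.1%, 28.5 to 40.2). The difference of 22.1 points (8.51 to 34.9) passed the test over whole peaks (adjusted p = 0.00505, Fisher's exact test). The shared peaks were wider, with a median of 1042.5 bp against 794 bp. They also had higher scores, with a median of 321 against 151. Over all Max peaks of the group the E-Box share was 28.2% in the lowest score bin and 62.0% in the highest. This comparison was not weighted by score. In the central 500 bp the difference was 13.3 points (adjusted p = 0.0935) and in the central 200 bp it was 3.0 points (adjusted p = 0.747), by the same exact test. Among Bio-Myc peaks 35 of 64 with a Max peak (54.7%) and 10 of 20 without one (50%) held an E-Box, a difference of 4.69 points (-18.8 to 27.9, adjusted p = 0.80, Fisher's exact test).

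Other E-Box forms were searched on both strands in the central 200 bp of the peaks without the canonical one. The word CACGCG was in 8 of 39 Bio-Myc peaks (20.5%) and 36 of 192 Max peaks (18.8%), against 24.2% and 24.4% at coding promoters and 8.16% and 14.3% away from promoters. The word CATGTG was in 9 of 39 (23.1%) and 24 of 192 (12.5%), against 7.73% and 7.91% at coding promoters and 33.3% and 20.7% away from promoters. For these words and in both lists the share at noncoding-only promoters lay between those of the other classes. This did not hold for the word CATGCG, which was in 5 of 39 Bio-Myc peaks (12.8%), above the 9.10% at coding promoters and the 6.69% away from promoters. In Max peaks it was in 14 of 192 (7.29%), below the 8.60% and 9.29% of the other classes. These shares are descriptions and the differences were not tested.

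In base composition too the group lay between the other classes. The median CpG ratio was 0.576 for Bio-Myc peaks, against 0.768 at coding promoters and 0.316 away from promoters. For Max peaks it was 0.599, against 0.754 and 0.388. The median GC content was 54.2% for Bio-Myc and 57.2% for Max, and the median widths were 1060.5 bp and 825 bp.

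**Figure D5:**
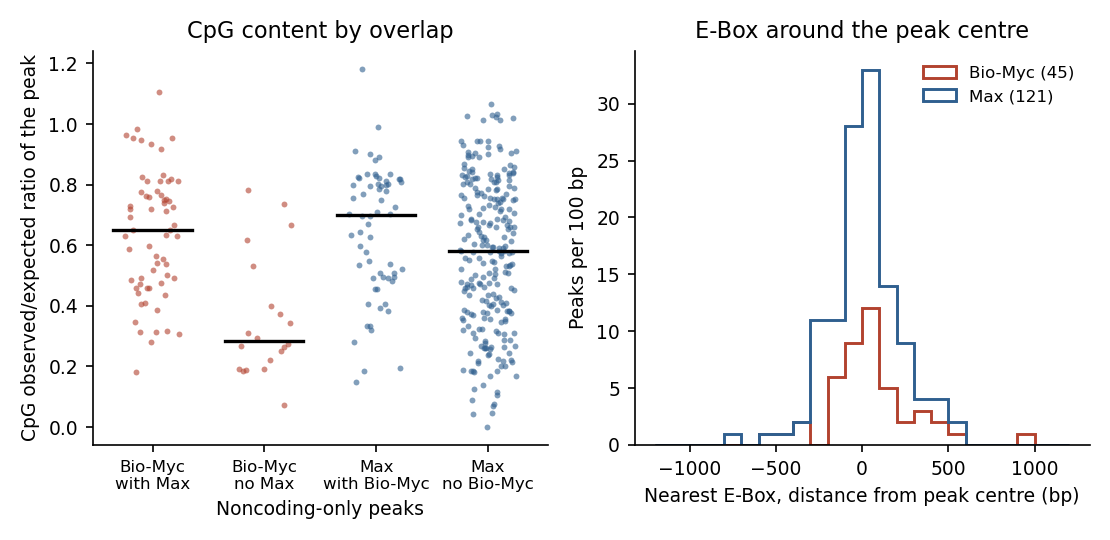
Left, ratio of observed to expected CpG (y axis) of each noncoding-only peak, by list and by overlap with the other list (x axis), with medians as black bars; right, number of peaks (y axis) by distance of the nearest E-Box from the peak centre in bp (x axis, bins of 100 bp), for 45 Bio-Myc (red) and 121 Max (blue) peaks. The 20 Bio-Myc peaks without Max have the lowest median ratio, 0.284.

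The rule required the peaks to lie close to a noncoding TSS, so the distances that follow only describe the group. The median distance of the centre from the nearest one was 239 bp (Bio-Myc) and 256 bp (Max), and 61 of 84 and 201 of 313 peaks covered a noncoding TSS. The centre was upstream in 43 and downstream in 41 Bio-Myc peaks. The nearest coding TSS, which the rule kept more than 1 kb away, was at a median of 16435 bp and 15553 bp. Outside any protein-coding gene lay 71 Bio-Myc and 236 Max peaks, and 11 and 56 were at noncoding genes antisense inside one. Of the 14 Bio-Myc peaks within 5 kb of a coding TSS 5 overlapped a Max peak, against 28 of the 31 between 5 and 20 kb. Between 20 and 50 kb 22 of 26 did, and beyond 50 kb 9 of 13. The differences between these distances were not tested.

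At the edges of the rule, the Bio-Myc peak closest to a coding TSS was that of Nespas, 1364 bp from a TSS of Gnas. For Max the closest was Gm6091 at 1014 bp from Gm17296, and the first one outside was Gm16520 at 994 bp from BC027582. The highest member scores were 1684.98 for Bio-Myc and 2019.91 for Max, the latter at A030009H04Rik, far under the limit of 3100. Other high Max scores without a Bio-Myc peak were at BC018473 (1912.46), Pisd-ps2 (1095.74), Gm5067 (1055.8) and 2410075B13Rik (1024.23). The peak at BC018473 was 7266 bp wide and its centre lay 2734 bp from the nearest noncoding TSS. The gene 2410075B13Rik is Ccdc166 in RefSeq and protein coding there. Pisd-ps1 (878.73) lay 717 bp from a Max peak at the score limit that is 20310 bp wide. The Max list as a whole had the most peaks on chromosome 8, 1357 against 1208 on chromosome 11, but 24 of them (1.77%) belonged to the group, against 40 (3.31%) on chromosome 11.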

How the data were processed

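The peak lists of 2 ChIP libraries (Bio-Myc and Max) were analysed. The control libraries were used by the authors in peak calling. The authors aligned HiScanSQ reads to mm9 by Bowtie 0.12.7, keeping uniquely mapped reads with at most 2 mismatches. After removal of redundant reads, peaks were called by MACS 1.4.1 against the mock or IgG library with a p-value limit of 1e-08. CASAVA 1.8 is also named in the submitters' processing notes. The deposited lists give position and a score for each peak, and the score as deposited is -10 times the log10 of the p-value. Unique mapping leaves out repeated sequence, and the fixed limit makes peak numbers depend on depth, which is unknown here.

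Gene models came from GENCODE M1, and the sequence was that of NCBIM37, the same assembly as mm9. The gene of a peak was the noncoding gene with the TSS nearest to the centre, since the lists hold no summits. RefSeq (GRCm38.p6) gave names, gene classes and miRNA sequences, but no coordinates. Shares have 95% Wilson intervals, covering counting error only. Classes were compared over peaks by Fisher's exact test, two-sided, adjusted over 10 tests, with a threshold of 0.05. Another 4 planned tests of repeat-masked centres were not run, as the genome used here carries no repeat mask. Named were the 10 highest-scoring peaks of each list, the 5 highest Bio-Myc peaks without Max, the highest of each type with 5 or more members, peaks at the limits of the rule and genes of 5 lists. Other names were chosen after their values were seen. The first Bio-Myc peak outside the rule is not reported here. Of the list of 12 RNA polymerase III and structural RNAs, 0 were annotated under those symbols. The members, lists and tests were chosen with earlier results of these data known. Alternatives were other windows, score limits, overlap rules and gene sets.

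Python 3.11.15 with pandas 2.3.3, scipy 1.17.1, pysam 0.24.0 and matplotlib 3.10.9, samtools 1.23.1 and blastn 2.17.0 were used. The steps were tested on simulated data, and 10 of 10 returned the known answer. Coordinates are 1-based.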

Additional observations from a re-analysis of the deposited data

Results flagged for a closer look

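In the Max list 2 peaks at noncoding-only promoters were outside the rule because their score was at the upper limit of 3100, and they belong to none of the comparisons. One was at Gm11400 on chromosome 11 (chr11:3049373-3051936, 2564 bp) and the other at AY036118 on chromosome 17 (chr17:39979557-39985889, 6333 bp). Neither overlapped a Bio-Myc peak.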

How the results depend on the processing

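Of 146 values recomputed under 13 planned and 2 added alternatives, 130 kept their direction and their side of the threshold or, for counts of peaks, stayed close to the count given above. With a score of 150 or more the counts of peaks were 46 (Bio-Myc) and 178 (Max), and the Max overlap against coding promoters was -5.46 points (adjusted p = 0.177, Fisher's exact test). The differences in E-Box share then were -5.74 (Bio-Myc against coding), -6.74 (Bio-Myc against away) and -0.129 points (Max against coding), reversed, and none of them passed the test there or over all peaks. With no coding TSS within 5 kb the Bio-Myc overlap against coding promoters turned to 1.18 points. Weighted to the scores of the group it was -9.10 points and passed the test (adjusted p = 0.04, Mantel-Haenszel test, not exact), the Max overlap against peaks away from promoters was 3.05 points (adjusted p = 0.314), and the Bio-Myc E-Box share against away was -3.47 points. Without chromosome 8 the Max overlap against away was 5.29 points (adjusted p = 0.0571, Fisher's exact test). In the central 200 bp the Bio-Myc E-Box share differed by -0.117 points from away and by -1.56 points between peaks with and without Max, and the Max one by 3.0 points with against without Bio-Myc (adjusted p = 0.747, Fisher's exact test). In the central 500 bp these were -2.43 points against away and 13.3 points for Max (adjusted p = 0.0935, Fisher's exact test). The causes were not tested.

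The alternatives that left out genes coding in RefSeq and peaks with like centres were added after the data were examined, and changed no direction or side of the threshold of the results named here. Score weighting was not run for the E-Box with against without the other list. No paired analysis was possible because each ChIP is 1 library.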
